A study of Homo sapiens with 8 samples.

Results

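The genes described here encode the canonical histones: linker histone H1 and the core histones H2A, H2B, H3 and H4. They were chosen by symbol, as the protein-coding genes named H1-, H2AC, H2BC, H3C or H4C followed by a number that had at least 20 counts summed over the 8 libraries. Of 71 such symbols among the 60664 genes of the count tables, 62 met this minimum: 9 for H1, 14 for H2A, 18 for H2B, 9 for H3 and 12 for H4. The genes just outside were H3C14 with 18 and H3C4 with 16 summed counts, and those just inside were H3C8 with 32 and H1-8 with 39. The counts are ribosome-protected fragments (footprints) from selective ribosome profiling in U-2 OS cells, an osteosarcoma line. All 4 groups held 2 libraries each, described as biological replicates. In the TRiC line, 1 clone, the chaperonin subunit CCT4 carried a HaloTag at its own gene. In the PFD line, a separate clone, the prefoldin subunit PFD4 carried it. For each line, input libraries held the footprints of all ribosomes and pulldown libraries those recovered with anti-HaloTag beads. Cells of all groups were exposed to cycloheximide at 100 µg per ml for 1 min and crosslinked with 2 mM DSP for 30 min. No untagged line is among the groups, so footprints that bind the beads without a tagged chaperone were not measured.

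Canonical histone genes lie in clusters, carry no introns in their coding sequence and are translated mainly in S phase, when new DNA is packaged into nucleosomes. Their mRNAs end in a conserved stem-loop instead of a poly(A) tail. SLBP binds this structure, and the histone pre-mRNA is cut behind it with the help of the U7 particle, to which LSM10 and LSM11 belong. TRiC is a ring-shaped chaperonin that folds actin, tubulins and other proteins, and prefoldin is a jellyfish-shaped co-chaperone that hands clients to TRiC. The study compared pulldown with input at each position along the coding sequence to find which nascent chains these chaperones contact. Here counts summed over each gene were compared, so contact at some positions only was not measured.

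The stem-loop was looked for as a check of the label. It was searched as GG and 4 further bases, a loop of 4 bases that begins with TT, and the reverse complement of the first 6 bases, within 100 bases after the stop codon on the coding strand. The match was present in 54 of the 62 genes and in 68 of 19924 protein-coding genes in all (0.341%), of which 4 do not carry one of these symbols. The forms found are given below, each with a gene that carries it, its place on hg38 and the stem in capitals, because this structure is the feature that these mRNAs share beyond their names.

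H1-2, chr6:26055744-26055759, minus strand: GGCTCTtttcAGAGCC

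H1-1, chr6:26017037-26017052, minus strand: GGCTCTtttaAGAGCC

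H2AC20, chr1:149887391-149887406, plus strand: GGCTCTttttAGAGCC

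H4C3, chr6:26104317-26104332, plus strand: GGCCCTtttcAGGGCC

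H4C9, chr6:27139654-27139669, plus strand: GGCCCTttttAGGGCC

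The form shown for H1-2 was found in 33 genes, that of H1-1 in 9 and that of H2AC20 in 1. The form shown for H4C3 was found in 9 genes and that for H4C9 in 2, all of them H4 genes. Genes without a match included H1-10, H1-8, H2AC11, H2AC15, H2BC10, H3C6 and H4C13. H1-10 and H1-8 are, as background, linker histone variants that are not tied to replication, the latter specific to oocytes. The symbol rule therefore takes in genes that the label replication-dependent does not cover.

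Copies of a histone differ little, which bears on every value because only footprints that aligned to 1 place in the genome were counted. The 9 H3 genes encode 1 identical protein, the 12 H4 genes 1 identical protein, the 14 H2A genes 10 proteins and the 18 H2B genes 14. The coding sequences still differ in synonymous bases. The first 28 coding bases of H4 genes are shown because these copies of 1 protein behaved unlike each other between the lines. Capitals mark bases that differ from H4C3.

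H4C3, chr6:26103948-26103975, plus strand: atgtctggtcgcggcaaaggcggaaaag

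H4C1, chr6:26021679-26021706, plus strand: atgtctggAcgTggTaaGggcggGaaGg

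H4C2, chr6:26027225-26027252, minus strand: atgtctggtcgcggcaaaggcggTaaag

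H4C5, chr6:26204645-26204672, plus strand: atgtctggtcgcggcaaaggcggaaaGg

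H4C9, chr6:27139309-27139336, plus strand: atgtcAggAcgcggcaaaggAggTaaGg

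H4C16, chr12:14771057-14771084, minus strand: atgtctggGcgAggTaaaggTggCaaGg

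H4C2 and H4C5 differ from H4C3 at 1 of these bases, H4C9 at 5, and H4C1 and H4C16 at 6. To measure how much of each gene can be counted at all, every coding window of 28 bases was looked up on both strands of hg38. The median gene had 88.3% of its windows in 1 place only. H2B genes were the least distinct, with a median of 59.8%, and H1 genes the most, with a median of 100%. H4C11 and H4C12, which share their coding sequence, had no unique window.

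The 62 genes fell into a high and a low group. Levels are given as CPM, footprint counts scaled by the TMM-adjusted library size, and the limit of 20 CPM was chosen after the values were seen. Above it lay 32 genes with means over the 8 libraries from 67.7 CPM, for H4C16, to 2712 CPM, for H1-2. Below it lay 30 genes with means up to 7.998 CPM, for H2AC15. The 32 abundant genes held 99.8% of all footprints on these histone genes, and the 30 scarce genes held 7819 counts over the 8 libraries.

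Unique sequence did not separate the groups. Among the scarce genes, 20 had at least 80% unique windows, and among the abundant genes, 7 had less than 50%. H1-3 and H1-5, somatic linker histone genes with 100% and 97.2% unique windows, had 69 and 88 counts over 8 libraries, whereas H2BC12 with 11.97% unique windows had 172017. Per length, H1-2 reached 4244 CPM per coding kb and H3C2 reached 4184, the 2 highest values of this scale, and H2BC15 was the lowest abundant gene with 194. The order changed per kb of unique coding windows, where H2BC12 was first with 22140 CPM per kb and H2BC21 had 5820, above H3C2 with 5035 and H1-2 with 4505. Only the main chromosomes were searched. Whether alternate contigs were in the authors' alignment index is not given in the sources used here, and footprints that also match such a contig would not align to 1 place, so the levels cover countable footprints only. Footprints outside the coding sequence were not told apart from those within it.

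Where a gene lies went along with its group. Chromosome 6 held 52 of the genes, 26 abundant and 26 scarce, chromosome 1 held 6, chromosome 3 held 2, and chromosomes 12 and 22 held 1 each. In order along chromosome 6, 9 neighbours from H2BC8 to H2BC10 were all scarce over 57.2 kb, 7 of them with at least 80% unique windows. A further 6 neighbours from H2AC16 to H2BC17 were scarce over 28.6 kb. The first 6 genes of the main cluster, from H1-1 to H2AC4, were all abundant within 16.6 kb. These runs are a description, since the groups were drawn on the same values.

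Many H2A and H2B genes share a divergent promoter, with starts less than 500 bases apart on opposite strands. Of 12 such pairs, 6 had both genes in the abundant group and 3 had both in the scarce group, and in 1, H2AC17 with scarce H2BC17, the H2A gene was below the minimum of 20 counts. The exceptions were H2AC7 with H2BC7 and H2AC15 with H2BC15, in each of which the H2B gene was abundant and the H2A gene scarce. In the annotation 98.7% of the H2AC7 coding bases lie under exons of a further gene on the same strand, and footprints there may not be assigned to either gene. The same holds for H3C4, with 100%, and for H2AC17, with 88.7% under H3C12, both below the minimum of 20 counts. On the opposite strand, H2BC4 is covered by a further gene over 100% of its coding bases, H1-10 over 53.8% and H4C8 over 47.9%. Which strand was counted is not given in the sources used here, so these 3 genes are uncertain in every comparison.

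The 250 bases before the start of 56 of the genes were searched for 3 promoter motifs on both strands, in RefSeq sequence of GRCh38.p14. CCAAT was found in 85.7% of them and in 32.01% of all 35116 promoters in that table. TATAAA was found in 64.3% and in 10.7% of all promoters. The octamer ATTTGCAT was found in 10 of 13 H2A and 14 of 18 H2B promoters, in none of the H1, H3 and H4 promoters, and in 1.63% of all promoters. Between abundant and scarce genes the share with the octamer was 42.9% in each, and TATAAA was found in 22 of 28 abundant and in 14 of 28 scarce genes. A match is a run of letters and not a measured site. The promoter of H1-1 is printed because this gene had the second largest difference between the inputs among the abundant genes, and the stretch between H2AC15 and H2BC15 because this pair was split in level and in its difference between the lines. Motifs on either strand are in capitals.

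H1-1, chr6:26017788-26018037, minus strand: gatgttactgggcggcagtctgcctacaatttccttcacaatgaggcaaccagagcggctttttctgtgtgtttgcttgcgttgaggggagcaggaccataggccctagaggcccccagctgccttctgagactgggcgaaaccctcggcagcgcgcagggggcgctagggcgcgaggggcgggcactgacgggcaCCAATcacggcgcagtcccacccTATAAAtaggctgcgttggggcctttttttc

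H2AC15 to H2BC15, chr6:27838376-27838544, strand of H2AC15: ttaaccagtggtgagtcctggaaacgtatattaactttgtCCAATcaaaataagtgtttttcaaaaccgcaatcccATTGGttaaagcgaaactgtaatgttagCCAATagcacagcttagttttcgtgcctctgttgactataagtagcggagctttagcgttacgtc

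Some facts of the libraries bear on all comparisons. The 8 libraries held 9523128 to 32637658 counts, which makes counting error small for the abundant genes, and the spread between replicates sets the precision. That spread differed, with a common dispersion of 0.0153 in the TRiC libraries and 0.331 in the PFD libraries. Genes with few counts were uneven in the PFD line. H2AC8, for example, had 0, 0, 2 and 54 counts in PFD inputs and pulldowns. Mesenchymal markers fitted the labelled line in part, with VIM at 1451 to 2101 CPM and SPARC at 2179 to 3112 CPM in all libraries, whereas COL1A2 stayed at or below 1.96 CPM. Of 6 markers of other lineages, CD3E and HBB had 0 counts in every library, PTPRC had at most 5, ALB at most 6 and CDH1 at most 21. EPCAM, an epithelial marker, had 1 count in PFD pulldown replicate 1 and 189 to 277 counts (5.95 to 18.25 CPM) in the other libraries. Its part in the histone results was not tested.

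**Figure D1:**
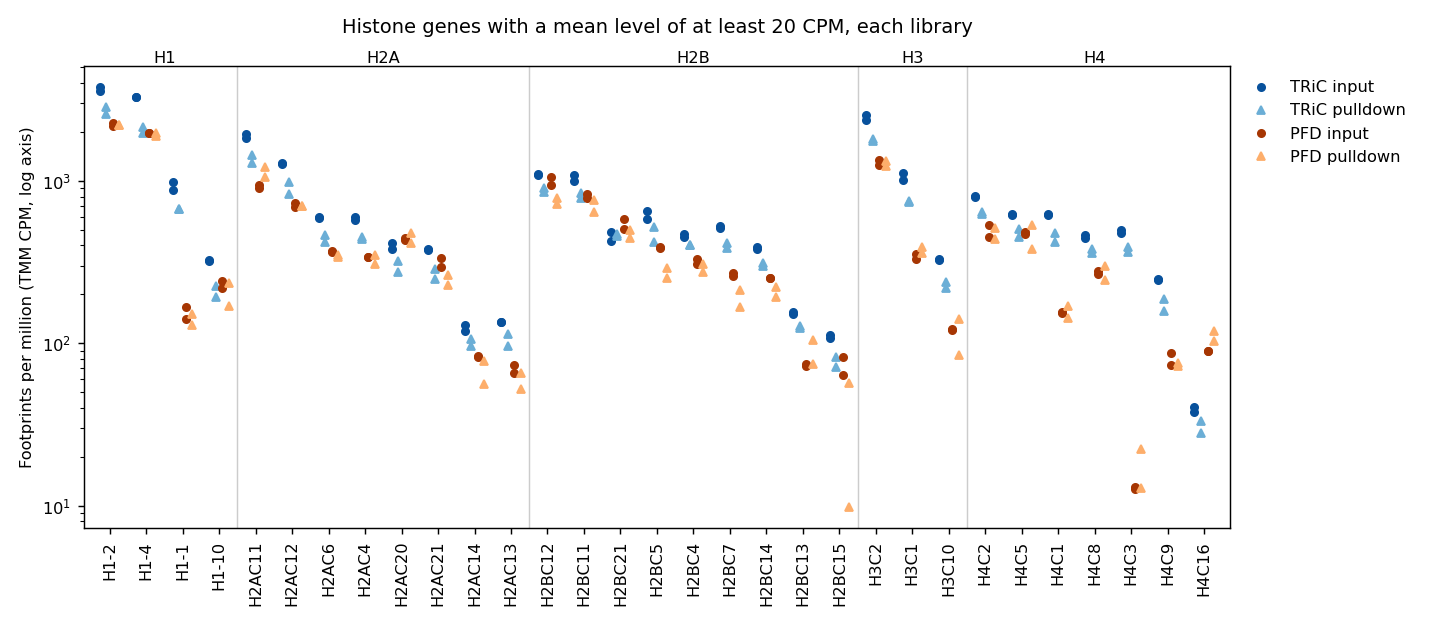
Level of 31 of the 32 abundant histone genes in each of the 8 libraries (TMM-scaled CPM, log axis), by class and in order of their mean, with colours and symbols for the 4 groups. In the TRiC line the pulldowns lie below the inputs for nearly all genes, and H4C3, H1-1 and H4C1 lie far lower in the PFD line.

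In the TRiC pulldown, footprints on histone genes were less frequent than in the input, in all 5 classes. Of the 62 genes 55 were tested, of which 35 were lower and 1 was higher in the pulldown (edgeR quasi-likelihood test, Benjamini-Hochberg adjusted p below 0.05). Over all 17934 genes tested, 10.6% were lower and 8.64% were higher. The histone calls include H2BC17 and H4C12, which passed the filter through 1 group alone, as given below. Among the 32 abundant genes 31 were lower, with a median log2 fold change of -0.41 against -0.0032 over all genes tested, and the range was from -0.68 to 0.02. The 7 genes that were not tested had too few counts.

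Linker histones, which bind the DNA that enters and leaves the nucleosome, held the furthest decreases of single genes among the abundant ones. H1-4 had 3277 and 3284 CPM in the inputs and 2145 and 1958 CPM in the pulldowns, which is -0.68 ± 0.06 (SE) on the log2 scale (adjusted p = 1.01e-06). H1-2 had 3589 and 3803 CPM in the inputs and 2838 and 2597 CPM in the pulldowns, which is -0.44 ± 0.06 (SE) on the log2 scale (adjusted p = 0.00012). For both genes each pulldown lay below each input. H1-1 went from 882 and 978 CPM to 667 and 672 CPM, a log2 fold change of -0.47 ± 0.07. H1-10, a variant that is not tied to replication, also fell. It had 325 and 323 CPM in the inputs and 226 and 193 CPM in the pulldowns (-0.63 ± 0.08). All 5 abundant H1 genes were called lower.

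H2A and H2B form the dimers that flank the H3 and H4 tetramer of a nucleosome. All 8 abundant H2A genes were lower, between -0.50 and -0.29 on the log2 scale. H2AC11, the most frequent of them, had 1829 and 1946 CPM in the inputs and 1433 and 1291 CPM in the pulldowns (-0.47 ± 0.07). H2AC12 had 1294 and 1268 CPM in the inputs and 977 and 830 CPM in the pulldowns (-0.50 ± 0.07). H2AC6 went from 599.6 and 588 CPM to 462 and 423 CPM (-0.42 ± 0.07), and H2AC21 from 382 and 377 CPM to 286 and 249.7 CPM (-0.50 ± 0.08). In these 4 H2A genes both pulldowns lay below both inputs. Of the 9 abundant H2B genes 8 were lower, and their median was the nearest to 0 of the classes (-0.34). H2BC12 had 1086 and 1095 CPM in the inputs and 903 and 851 CPM in the pulldowns (-0.31 ± 0.06), and H2BC11 had 1090 and 994 CPM in the inputs and 837 and 784 CPM in the pulldowns (-0.36 ± 0.07). H2BC5 went from 653 and 585 CPM to 518 and 418 CPM (-0.40 ± 0.09). H2BC15 had 112 and 108 CPM in the inputs and 81.8 and 71.0 CPM in the pulldowns, the largest decrease among the abundant H2B genes (-0.52 ± 0.09).

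H2BC21 on chromosome 1 was the exception among the abundant genes. It had 429 and 484 CPM in the inputs and 456 and 469 CPM in the pulldowns, so that both groups overlapped, with a log2 fold change of 0.02 ± 0.07 (adjusted p = 0.893). Its divergent neighbour H2AC20, which starts 235 bases away, had 416 and 380 CPM in the inputs and 321 and 274 CPM in the pulldowns (-0.42 ± 0.08). A difference between these neighbours was not tested. Of the coding windows of H2BC21 23.6% are unique, and of those of H2AC20 46.1%.

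H3 and H4 form the core tetramer. The 3 abundant H3 genes were all lower. H3C2 had 2371 and 2531 CPM in the inputs and 1821 and 1768 CPM in the pulldowns (-0.45 ± 0.06), H3C1 went from 1016 and 1116 CPM to 744 and 753 CPM (-0.51 ± 0.07), and H3C10 went from 330 and 325 CPM to 240 and 218 CPM (-0.52 ± 0.07). The 7 abundant H4 genes were lower by between -0.52 and -0.30. H4C2 had 807 and 795 CPM in the inputs and 645 and 624 CPM in the pulldowns (-0.34 ± 0.06). H4C3 had 479 and 501 CPM in the inputs and 389 and 366 CPM in the pulldowns (-0.38 ± 0.07), and H4C5 had 621 and 616 CPM in the inputs and 509 and 454 CPM in the pulldowns (-0.36 ± 0.07). H4C1 went from 625 and 612 CPM to 475 and 421 CPM (-0.46 ± 0.07), and H4C9 from 248 and 247 CPM to 188 and 158 CPM (-0.52 ± 0.08). H4C16 on chromosome 12 was near the limit, with 40.5 and 37.8 CPM in the inputs and 33.4 and 28.1 CPM in the pulldowns (-0.35 ± 0.12, adjusted p = 0.0443). It was called in 3 of 11 alternatives, H2BC4 in 4, H2AC14 in 5, H2BC13 in 6, and H2AC13 and H4C8 in 8 each.

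Of the 30 scarce genes 23 were tested. Where 10.6% of all genes tested were lower, 4 of these 23 were lower. They were H2AC8 (239 and 363 counts in the input libraries against 203 and 169 in the pulldown libraries), H2BC8 (343 and 437 against 244 and 239), H2BC3 (266 and 320 against 218 and 164) and H2BC17 (31 and 28 against 5 and 3). H2BC17 passed the filter through the input libraries alone, so the filter itself favoured a lower pulldown, and its values are a description. H2AC8 was called in 8 of 11 alternatives, H2BC8 in 9 of 11, H2BC3 in 6 of 11 and H2BC17 in 6 of the 10 that tested it. H4C12 met the count minimum and the filter through the pulldown libraries alone, which favoured a higher pulldown. It was the only gene called higher, with 1 and 4 counts in its input and 43 and 25 in its pulldown libraries (log2 fold change 3.68 ± 0.92, adjusted p = 0.00962). None of its coding windows is unique, and without TRiC input replicate 1 or without TRiC pulldown replicate 1 it was not called, which left 0 genes called higher.

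Summed by class, the same decrease stood in the totals. The histone genes together took 2.54% and 2.699% of the counts of the TRiC inputs and 2.07% and 1.90% of the TRiC pulldowns. Pulldown over input was 0.690 for H1, 0.729 for H2A, 0.810 for H2B, 0.721 for H3 and 0.769 for H4, on TMM-scaled totals. In each class both pulldowns lay below both inputs, and no test was run on these sums. Of 10 histone variants outside the symbol rule 9 were tested and 3 were lower. They were H2AX, the variant phosphorylated at DNA breaks (-0.61 ± 0.08), H3-3B, a gene of the replacement histone H3.3 (-0.32 ± 0.075), and CENPA, the centromeric H3 (-0.27 ± 0.09). The median of the list was -0.16. Over all genes tested, 10.6% were lower and 8.64% were higher. Of 15 S phase genes 6 were lower in the TRiC pulldown, with a median of -0.18, and of 10 mitosis genes 4 were lower and 1 was higher, with a median of -0.14.

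The calls in the TRiC pulldown depended on which libraries entered the fit. When the 8 libraries shared an estimate of the spread, 1 histone gene, H1-4, was called lower and 0 were called higher, where 0.0796% of 18855 genes tested were lower and 0.0849% higher. Calls over all genes fell as well, and the fold changes kept their direction for the named genes. The median of the abundant genes was -0.27 under cyclic loess, which normalizes by level.

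In the PFD pulldown, 1 histone gene was lower, 0 were higher and 42 of the 43 tested were not called, where 0.191% of 14111 genes tested were lower and 0.0496% higher. At an unadjusted p below 0.05, 5 histone genes were lower and 1 was higher, against 3.86% and 3.08% of all genes tested. DESeq2 called 4 lower, H2AC15, H2BC12, H2BC5 and H2BC7, where it called 2.09% of all genes lower and 1.81% higher. The abundant genes had a median log2 fold change of -0.065 against -0.0005 over all genes tested, and ranged from -1.12 to 0.48. The common dispersion was 0.331 here against 0.0153 in the TRiC line, and with that spread a p that misses the limit does not show that values did not differ.

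H2AC15 was the gene called lower. It had 519 and 377 counts in the PFD inputs, 0 in both PFD pulldowns and 0 in all 4 TRiC libraries. The fall in the pulldown was at least 151-fold when each pulldown library is set to 3 counts, and its adjusted p was 0.0119. The gene met the count minimum and the filter through the PFD inputs alone, which favoured a difference, and the values are given as a description. Its divergent neighbour H2BC15 had 63.7 and 82.1 CPM in the PFD inputs and 9.78 and 57.1 CPM in the PFD pulldowns (log2 fold change -1.12 ± 0.64, adjusted p = 0.822). The low value is in pulldown replicate 1, and both pulldowns lay below both inputs.

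The most frequent genes sat near 0. H1-2 had 2271 and 2192 CPM in the PFD inputs and 2201 and 2200 CPM in the pulldowns (-0.01 ± 0.07). H1-4 had 1958 and 1966 CPM in the inputs and 1894 and 1979 CPM in the pulldowns (-0.01 ± 0.07), and H3C2 had 1256 and 1345 CPM in the inputs and 1232 and 1333 CPM in the pulldowns (-0.01 ± 0.08). In these 3 genes the groups overlapped.

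Some H2B genes read lower without a call. H2BC12 had 949 and 1051 CPM in the PFD inputs and 781 and 721 CPM in the pulldowns (-0.40 ± 0.11, adjusted p = 0.574). H2BC5 had 388 and 390 CPM in the inputs and 289 and 252 CPM in the pulldowns (-0.51 ± 0.13, adjusted p = 0.489), and H2BC7 had 258 and 272 CPM in the inputs and 168 and 213 CPM in the pulldowns (-0.47 ± 0.14, adjusted p = 0.651). H2AC11 read higher, with 900 and 942 CPM in the inputs and 1223 and 1059 CPM in the pulldowns (0.325 ± 0.11, adjusted p = 0.702). In each of these 4 genes the groups did not overlap. How often 2 libraries separate from 2 over all genes tested was not counted. Such a separation without a call is a description, here and in the other PFD values. H2BC3, the highest among the tested genes whose mean count reached 100, had 11 and 10 counts in PFD input and 30 and 81 in PFD pulldown libraries (1.98 ± 1.62, adjusted p = 0.908).

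The remaining genes given by library were not called in the PFD pulldown, and their values went in both directions. For H1, H1-1 had 142 and 167 CPM in the inputs and 129.7 and 150.5 CPM in the pulldowns, and H1-10 had 219 and 240.3 CPM against 235 and 169 CPM. For H2A, H2AC12 had 688 and 735 CPM in the inputs and 700.2 and 695 CPM in the pulldowns, H2AC6 had 366 and 368 CPM against 350.2 and 337 CPM, and H2AC21 had 295 and 336 CPM against 228 and 264 CPM (-0.35 ± 0.13, adjusted p = 0.706). In H2AC6 and H2AC21 both pulldowns lay below both inputs, without a call. For H2B, H2BC11 had 828 and 784 CPM in the inputs and 759 and 641.5 CPM in the pulldowns, and H2BC21 had 507 and 579.9 CPM against 444 and 495 CPM. In H2BC11 and H2BC21, too, both pulldowns lay below both inputs, without a call. Of the 9 abundant H2B genes, 8 read lower in the pulldown and 1 read higher. For H3, H3C1 had 329 and 354 CPM in the inputs and 358 and 389 CPM in the pulldowns, and H3C10 had 122 and 120.2 CPM against 141 and 84.9 CPM. In H3C1 both pulldowns lay above both inputs, without a call. The H3 and H4 genes showed both directions. H4C2 had 538 and 450.2 CPM in the inputs and 513 and 436 CPM in the pulldowns, H4C5 had 484 and 469 CPM against 381 and 534 CPM, and H4C1 had 153 and 155 CPM against 169 and 143 CPM. H4C9 had 73.9 and 86.9 CPM against 75.2 and 72.3 CPM. H4C16 had 89.3 and 89.9 CPM against 119.6 and 103 CPM, both pulldowns above both inputs (0.33 ± 0.18, adjusted p = 0.818).

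The calls depended on the pulldown library kept. Without PFD pulldown replicate 1, 5 genes were lower (H1-10, H2AC15, H2BC11, H2BC12 and H2BC5) and 0 were higher, where 1.66% of all genes tested were lower and 0.688% higher. Without PFD pulldown replicate 2, 6 were lower (H2AC15, H2AC21, H2BC12, H2BC15, H2BC5 and H2BC7) and H2AC11 was higher, where 8.76% of all genes tested were lower and 7% higher. With 1 library left in a group, that library is assumed to vary like the other group. In the class totals, pulldown over input was 0.988 for H1, 1.02 for H2A, 0.809 for H2B, 1.00 for H3 and 0.988 for H4. The H2B total was 3628 and 3820 CPM in the inputs and 3066 and 2960 CPM in the pulldowns, which did not overlap, and no test was run on it.

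Whether the TRiC pulldown differed from the PFD pulldown was tested as the difference of both pulldown over input ratios in a fit of all 8 libraries. No histone gene was called in either direction among the 60 tested (edgeR, adjusted p of at least 0.105), where 0.0159% of 18855 genes were lower and 0.0212% higher. At an unadjusted p below 0.05, 17 were lower in TRiC and 1 was higher, against 7.51% and 7.29% of all genes tested. The gene higher at this limit was H4C11, which has 0 counts in both PFD pulldowns. Among the 17, H2AC8 and H2AC25 have 0 counts in both PFD inputs, so none of these genes has a measured difference. Of the 32 abundant genes 14 were lower at this limit and 0 were higher. DESeq2 called 11 lower and 1 higher, where 2.84% of all genes were lower and 2.55% higher. The gene called higher was H2AC15, which has 0 counts in all libraries but the PFD inputs, and H2AC8, among the 11, has 0 counts in both PFD inputs, so neither has a measured difference. Also among the 11 were H1-2, H1-4, H2AC11, H2AC12, H3C1 and H3C2. H1-4 had a difference of -0.66 ± 0.10 on the log2 scale (adjusted p = 0.105), H2AC11 of -0.78 ± 0.13 (adjusted p = 0.12) and H3C1 of -0.64 ± 0.12 (adjusted p = 0.139). The median over the abundant genes was -0.34, and over the 9 abundant H2B genes it was 0.09. Without PFD pulldown replicate 1, 11 were called lower and 0 higher, where 2.69% of all genes tested were lower and 2.93% higher. Without PFD pulldown replicate 2, 16 were called lower and 1 higher, where 6.73% of all genes were lower and 11.6% higher.

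The inputs differed between the lines in most histone genes. Of 55 genes tested, 34 were higher in the TRiC input and 3 were lower, where 22.6% of 16341 genes tested were higher and 17.7% lower. Some scarce genes among the histone calls passed the filter through the inputs of 1 line alone, as named below, and are a description. The abundant genes had a median log2 difference of 0.71 against 0.11 over all genes tested, and 27 of 32 were higher and 2 lower. The lines are separate clones, and line, clone and library preparation cannot be told apart here. In input libraries, more mRNA of a gene and more ribosomes per mRNA cannot be told apart either, nor can a larger share of cells in S phase and more footprints per such cell.

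H4C3 stood apart by size. This H4 gene (chr6:26103933-26104337) had 479 and 501 CPM in the TRiC inputs and 12.6 and 12.9 CPM in the PFD inputs, a log2 difference of 5.27 ± 0.08 (adjusted p = 2.19e-05), which is 38.5-fold. The PFD pulldowns had 22.4 and 12.8 CPM, so the low level held in all 4 libraries of that line. H4C3 made up 15.0% of the H4 footprints in the TRiC inputs and 0.807% in the PFD inputs. H4C2 and H4C5, which encode the same protein and differ from H4C3 at 1 of their first 28 coding bases, differed far less. H4C2 had 807 and 795 CPM in the TRiC inputs and 538 and 450 CPM in the PFD inputs (0.70 ± 0.09), and H4C5 had 621 and 616 CPM against 484 and 469 CPM (0.37 ± 0.05).

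In the first stretch of the main cluster, the 6 genes from H1-1 to H2AC4, large differences were found for H1-1, H4C1 and H3C1. H4C2, H2AC4 and H3C2 of the same stretch differed less, by 0.70, 0.79 and 0.91. H1-1 had 882 and 978 CPM in the TRiC inputs and 142 and 167 CPM in the PFD inputs (2.59 ± 0.10, 6.04-fold). H4C1 had 625 and 612 CPM in the TRiC inputs and 153 and 155 CPM in the PFD inputs (2.00 ± 0.06, 4.01-fold), and H3C1 had 1016 and 1116 CPM against 329 and 354 CPM (1.64 ± 0.07). H4C9 and H3C10, from the other stretches, had 248 and 247 CPM against 73.9 and 86.9 CPM (1.63 ± 0.10), and 330 and 325 CPM against 122 and 120 CPM (1.43 ± 0.06). In all of them both TRiC inputs lay above both PFD inputs. The most frequent genes differed less, with H1-2 at 0.73 ± 0.05, H1-4 at 0.74 ± 0.04, H3C2 at 0.91 ± 0.06 and H2AC11 at 1.03 ± 0.06.

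The genes that were lower in the TRiC input included H4C16 and H2AC15. H4C16 had 40.5 and 37.8 CPM in the TRiC inputs and 89.3 and 89.9 CPM in the PFD inputs (-1.19 ± 0.10, adjusted p = 0.000812). H2AC15 had 0 counts in the TRiC inputs and was at least 312-fold lower there, at 3 counts for each TRiC library, and it passed the filter through the PFD inputs alone. The abundant genes without a call were H2AC20 (416 and 380 CPM against 431 and 444), H2BC12 (1086 and 1095 CPM against 949 and 1051) and H2BC21 (429 and 484 CPM against 507 and 580). Under the 11 alternatives H2BC21 was called lower in 5, H2BC12 higher in 3 and H2AC20 in 0. Both H2AC20 and H2BC21 lie on chromosome 1, as does H2AC21, which was called with a difference of 0.27 ± 0.08 (adjusted p = 0.0407, 7 of 11 alternatives). H2AC6 and H2BC5 were higher in the TRiC input by 0.69 ± 0.05 and 0.67 ± 0.07.

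**Figure D2:**
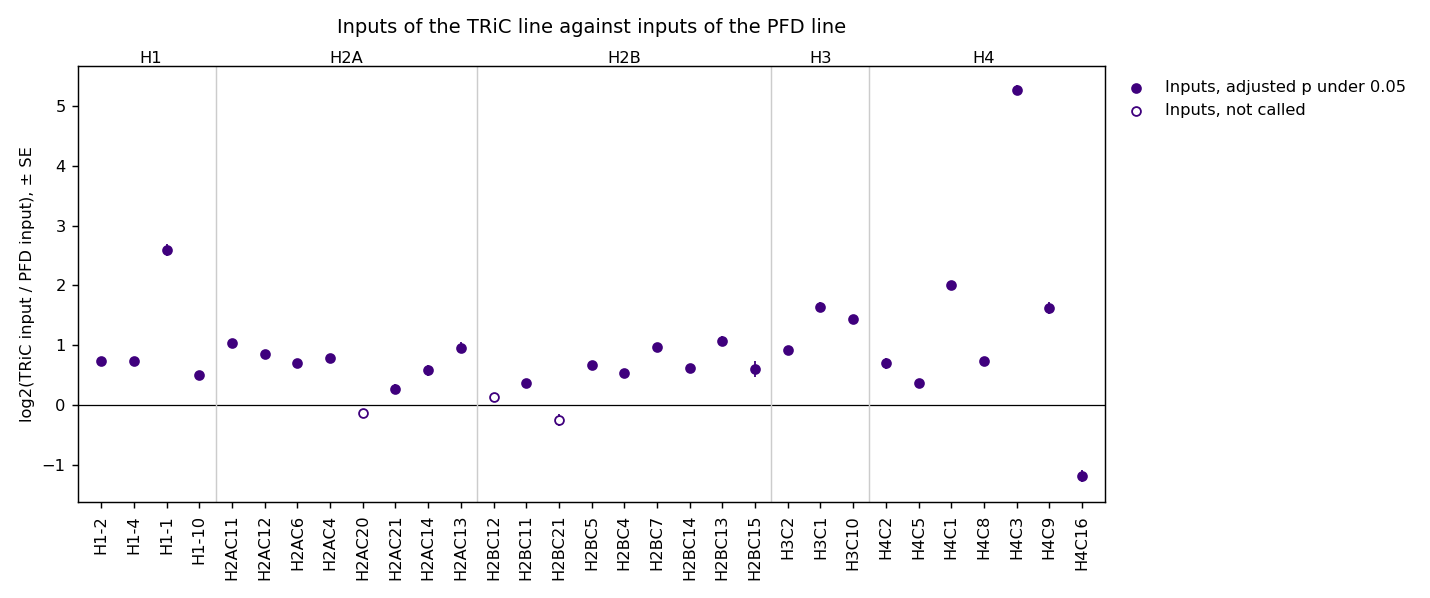
Log2 ratio of TRiC input over PFD input with its standard error for 31 of the 32 abundant histone genes, with filled symbols for an adjusted p below 0.05. H4C3 is at 5.27, H1-1 at 2.59 and H4C1 at 2.00, and H4C16 is the lowest at -1.19.

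Of 23 scarce genes tested, 7 were higher in the TRiC input and 1, H2AC15, was lower, where 22.6% of all genes tested were higher and 17.7% lower. H2AC8, H2BC8, H3C3, H2AC1, H2AC25 and H2BC6 passed the filter through the TRiC inputs alone. The filter thus favoured a difference, and their values are a description. H2AC8 had 239 and 363 counts in the TRiC inputs and 0 in both PFD inputs, at least 45.5-fold higher with 3 counts for each PFD library. H2BC8, its divergent partner 232 bases away, had 343 and 437 counts against 18 and 0 (4.56 ± 0.91). H2BC3 had 266 and 320 counts against 11 and 10 (3.72 ± 0.46), and H3C3, its neighbour, had 162 and 138 against 20 and 3 (2.85 ± 0.74). The others had few counts. H2AC1, a testis variant, had 25 and 13 counts against 0 and 0, H2AC25 had 28 and 18 against 0 and 0, and H2BC6 had 27 and 29 against 0 and 1. Part of these calls were lost under alternatives. H3C3 was called in 6 of the 10 alternatives that tested it, H2AC1 in 5 of 9, H2AC25 in 5 of 10 and H2BC6 in 4 of 10. In the pulldowns, H2AC1 had 15 and 25 counts in the TRiC and 0 and 22 in the PFD line, and H2AC25 had 7 and 9 in the TRiC and 1 and 26 in the PFD line. H2BC6 had 15 and 14 counts in TRiC and 0 and 3 in PFD pulldowns, H3C3 had 148 and 93 in TRiC and 8 and 14 in PFD pulldowns, and H2BC8 had 13 and 53 in PFD pulldowns. The PFD pulldowns of H2AC1 and H2AC25 were thus uneven between replicates.

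In class totals, TRiC input over PFD input was 1.66 for H1, 1.65 for H2A, 1.31 for H2B, 2.18 for H3 and 2.07 for H4. Without H4C3 the H4 value was 1.77, and without H4C3, H4C1 and H4C9 it was 1.43. Without H1-1 the H1 value was 1.53. All histone genes together took 1.54% and 1.61% of the counts of the PFD inputs and 1.49% and 1.46% of those of the PFD pulldowns. The TRiC pulldowns, with 2.07% and 1.90%, still held larger shares of histone footprints than any PFD library.

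Cell cycle genes, from lists that take members by their known role, were read against the 22.6% higher and 17.7% lower over all genes tested. Of 10 mitosis genes, 9 were higher in the TRiC input and 0 were lower, with a median of 0.94, and the tenth was BUB1 (0.28 ± 0.09, adjusted p = 0.0546). CCNB1, the mitotic cyclin B1, had 903 and 1000 CPM in the TRiC inputs and 434 and 400 CPM in the PFD inputs (1.19 ± 0.08). Of 15 S phase genes, 4 were higher, 4 were lower and 7 were not called, which is near that background. TK1, thymidine kinase, and CCNA2, cyclin A2, were higher by 1.10 ± 0.06 and 0.98 ± 0.07, and RFC4 and POLA1 by 0.42 ± 0.09 and 0.39 ± 0.11. CCNE1 and CCNE2, the E cyclins of S phase entry, were lower by -0.96 ± 0.11 and -0.70 ± 0.15, as were CDC6, which loads the replicative helicase, at -0.68 ± 0.08 and UHRF1 at -0.39 ± 0.11. PCNA, the replication clamp, was at -0.20 ± 0.06 (adjusted p = 0.0524). The part of these genes in the histone result was not tested.

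Genes that make and handle histone mRNA and protein had calls in both directions, against the 22.6% higher and 17.7% lower over all genes tested. Of 12 genes of histone mRNA 3' processing and transcription, 3 were higher in the TRiC input (SLBP at 0.45 ± 0.08, CPSF2 at 0.68 ± 0.13 and CPSF3, the endonuclease, at 0.65 ± 0.08) and 4 were lower. These were LSM10 at -0.99 ± 0.26, CSTF2 at -0.56 ± 0.09, SYMPK at -0.54 ± 0.11 and NPAT, the activator of histone gene transcription, at -0.44 ± 0.13. Of 19 histone chaperones and importins, 3 were higher (ASF1B at 1.32 ± 0.15, RBBP4 at 0.49 ± 0.08 and NASP at 0.33 ± 0.065) and 6 were lower, of which the importin IPO5 was the furthest at -0.83 ± 0.08. In the TRiC pulldown 2 of the 12 and 4 of the 19 were lower and none was higher, where 10.6% of all genes tested were lower and 8.64% higher, with medians of -0.16 and -0.14. In the PFD pulldown none of either list was called by edgeR, and their medians were 0.02 and 0.06.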

How the data were processed

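Footprints of 8 libraries from 2 U-2 OS lines were used. Per the methods of the study, the authors trimmed and demultiplexed reads, extracted UMIs with UMI-tools, removed non-coding RNA with Bowtie2 2.4.2, and aligned to hg38 with STAR 2.7.10a, allowing 2 mismatches and unique alignments only. The deposited values are raw counts per gene, with a table for each line. The annotation release and the counted strand are not given in the sources used here. UMIs limit PCR duplicates, unique alignment drops footprints shared by copies, and all exons of a gene were counted.

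Gene names, positions and coding sequences came from GENCODE v44, which named 60463 of the 60664 identifiers. Each comparison used edgeR 4.0.16 in R 4.3.3 (TMM, filterByExpr, glmQLFit, glmQLFTest) over all genes tested, with Benjamini-Hochberg adjustment and a limit of 0.05. Only the 4 libraries concerned entered, or all 8 for the difference of ratios. The standard errors are approximate, taken from the test as the absolute log2 fold change over the square root of its F value. CPM were scaled by TMM over 8 libraries. Lower bounds used a floor of 3 counts per library. The libraries held 9523128 to 32637658 counts. The fits were tested on simulated counts with 200 genes changed. Coding windows of 28 bases were looked up in the main chromosomes of hg38.

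Alternatives were DESeq2 1.42.0, cyclic loess (limma 3.58.1), plain library totals, a replicate block, no filter, a minimum mean count of 100, all 8 libraries in a fit, leaving out each library, and windows of 32 bases. Genes with values in every library were the 3 most frequent in the inputs of each class, called members (up to 12 of largest fold change per comparison and direction), and the extremes of each pulldown among members with a mean count of at least 100. Other genes were named after their values were seen. One gene that this rule takes is counted but not reported here. Members and lists were chosen with earlier results of these data known.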

Additional observations from a re-analysis of the deposited data

How the results depend on the processing

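Each comparison was repeated under the alternatives, and no called gene that is named changed direction. TRiC pulldown: 0 histone genes were higher when the mean count had to reach 100, where 1716 of all 11778 genes tested were higher. With all 8 libraries in a fit 0 were higher and 1 was lower, where 16 and 15 of all 18855 genes were. Cyclic loess gave a median of -0.27 for the abundant genes. Leaving out libraries gave medians of -0.49 to -0.34. PFD pulldown: 2 histone genes were lower with the replicate block, 2 with no filter and 4 with DESeq2. Over all genes tested, 90 of 14111, 93 of 24409 and 295 of 14111 were lower in these fits. The median was -0.10 on library totals and -0.088 under cyclic loess. Leaving out libraries gave 1 to 6 lower, 0 to 1 higher, and medians of -0.13 to -0.028. Inputs: the median was 0.86 under cyclic loess and 0.75 with no filter, while the median of all genes was -0.03 and 1.00 in these fits against 0.11. Leaving out libraries gave medians of 0.72 to 0.76. Difference of both ratios: DESeq2 called 1 histone gene higher and 11 lower, and no filter gave 9 lower. Over all genes tested, DESeq2 called 481 of 18855 higher and 536 lower, and no filter gave 298 of 37463 lower. The median was -0.27 on library totals and -0.20 under cyclic loess. Leaving out libraries gave medians of -0.40 to -0.28. On library totals pulldown over input was 1.00 for H2A and 0.939 for all histone genes in the PFD line, and 0.745 for H3 in the TRiC line. The cause was not tested for any of these shifts.

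Deviations of same-numbered libraries correlated at 0.05 for TRiC, -0.01 for PFD and 0.04 for the inputs over 18855 genes. Such libraries shared little of their spread, which does not show whether pulldown and input of a number came from the same cells. The main fits did not pair them. With the replicate block the calls lower over all genes went from 1894 to 2652 in the TRiC pulldown and from 27 to 90 in the PFD pulldown, and the second histone gene called lower in the latter was H2BC15. With 2 libraries per group, the spread within the PFD line limits which calls can be made.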
